A study of Mus musculus with 4 samples.

Results

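MHC class II-high cells that also carried the complement genes of microglia and macrophages were examined in the brains of tumour-bearing and sham-injected mice, young and old. They were chosen by counts of unique molecular identifiers (UMIs), each of which marks 1 captured RNA molecule. A cell counted as a member with at least 10 UMIs of C1qa, C1qb and C1qc together and at least 20 UMIs of the class II genes H2-Aa, H2-Ab1, H2-Eb1 and Cd74 together. It had at most 1 UMI of Mrc1, Pf4, Cbr2 and Lyve1 (border macrophage genes) and none of Cd3d, Cd3e, Cd3g (T cells), Cd79a, Ms4a1 (B cells) or Hmga2, which encodes an architectural chromatin protein found in embryos and tumours. The last condition took out 49 cells, all of them in young tumour. The rule found 793 members among 44503 kept barcodes, or 1.78%, and 641 of them (80.8%) lay in 1 library. Members were split by P2ry12, Tmem119 and Siglech, genes of resident microglia. Those with 3 or more UMIs of these genes are called marker-high and those with fewer marker-low.

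Single-cell RNA was sequenced from the hemisphere opposite to the injection, 2 weeks after mice of 8 weeks (young) or 93 weeks (old) had received 1000 CT2A-GFP-luc glioma cells (tumour) or PBS (sham) into the brain. The CT2A line is a mouse glioma line, here with reporter genes for GFP and luciferase, and the series names C57BL/6 as the strain for all groups. Each of the 4 groups is 1 library, and the labels do not say how many mice it holds. Where 4 values stand together, young sham comes first, then young tumour, old sham and old tumour. No difference between groups could therefore be tested, and every interval below is a 95% interval for counting error alone.

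MHC class II molecules are pairs of an alpha and a beta chain that show peptides from ingested proteins to CD4+ T cells. The invariant chain, Cd74, guards the groove until H2-DM helps to load a peptide, and the coactivator Ciita switches the genes on together, most strongly after interferon-gamma. Resting microglia hold little class II, whereas macrophages from blood monocytes and dendritic cells can hold much.

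H2-Aa, H2-Ab1 and H2-Eb1 lie within the class II region of mouse chromosome 17, at chr17:34282744-34287823 (minus strand), chr17:34257689-34269419 (plus strand) and chr17:34305867-34316674 (plus strand) in GRCm38. The 250 bases before the start of H2-Aa and H2-Eb1 are shown because these genes, which chose the members, share the promoter elements that Ciita works through. They are RefSeq sequences of GRCm38.p6, written 5′ to 3′ on the strand of the gene. Capitals mark ATTGG or its reverse complement (the Y box core) and, in H2-Eb1, the stretch CTAGNAACTGATGATGCT. It is the longest that H2-Eb1 shares, with 1 mismatch (N), with H2-DMb1, a chain of H2-DM that the rule did not use, and it covers the X box region.
H2-Aa, chr17:34287824-34288073, minus strand: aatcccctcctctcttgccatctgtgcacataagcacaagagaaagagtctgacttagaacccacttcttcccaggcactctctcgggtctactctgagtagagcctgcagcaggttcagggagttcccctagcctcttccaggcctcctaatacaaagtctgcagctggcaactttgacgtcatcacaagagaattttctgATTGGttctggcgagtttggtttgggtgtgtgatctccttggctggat
H2-Eb1, chr17:34305617-34305866, plus strand: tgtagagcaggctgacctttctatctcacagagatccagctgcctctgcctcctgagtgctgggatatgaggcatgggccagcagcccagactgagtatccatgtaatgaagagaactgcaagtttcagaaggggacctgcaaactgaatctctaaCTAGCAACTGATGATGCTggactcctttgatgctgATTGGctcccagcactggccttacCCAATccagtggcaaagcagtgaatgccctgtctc
The match nearest the start began 48 bases upstream in H2-Aa. In H2-Eb1 there were 2 Y box matches, 59 and 35 bases upstream, and the longer stretch began 94 bases upstream. In H2-DMb1 the stretch read CTAGTAACTGATGATGCT, began 97 bases upstream and was followed by ATTGG, 61 bases upstream. Among 32851 promoters of the same length, 33.8% held ATTGG on either strand. The longer stretch was held on either strand by 2, these same genes. It was taken from them, so their match was given in advance and nothing is read from this count.

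Members made up 0.333% of kept cells in young sham (39 cells, 0.237 to 0.455), 5.54% in young tumour (641 cells, 5.13 to 5.97), 0.326% in old sham (34 cells, 0.226 to 0.456) and 0.731% in old tumour (79 cells, 0.579 to 0.91). The sham libraries were alike within counting error, with an old to young ratio of 0.979 (0.60 to 1.59). The share in the young tumour library was 16.6 (12 to 23.6) times that in young sham, and the share in old tumour was 2.24 (1.48 to 3.45) times that in old sham. As a part of C1q-positive cells that passed the same exclusions, members reached 17.5% in young tumour against 0.908%, 1.22% and 2.83% in young sham, old sham and old tumour. These shares describe what the rule selected, and with 1 library a group they were not tested.

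The 2 sides of the split were filled differently. In young tumour 392 members were marker-low and 249 marker-high, and in old tumour 31 and 48, so that marker-high cells were 38.8% (35.1 to 42.7) of the members of young tumour and 60.8% (49.1 to 71.6) of those of old tumour. Young sham held 29 marker-low and 10 marker-high members, and old sham 21 and 13. Against sham, the marker-low share of kept cells was 13.7 (9.36 to 20.7) times as high in young tumour and 1.42 (0.792 to 2.61) times in old tumour, an interval that holds 1. For the marker-high share the ratios were 25.2 (13.5 to 53.1) and 3.56 (1.9 to 7.16).

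**Figure D1:**
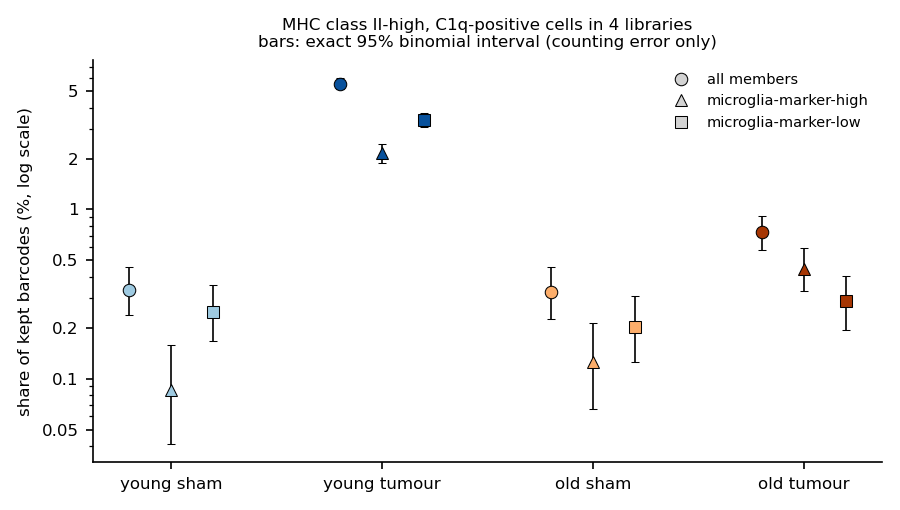
Share of kept barcodes that were MHC class II-high, C1q-positive cells in each library (log scale), for all members and for the marker-high and marker-low sides, with exact 95% binomial intervals. The young tumour library stands above the other 3 on both sides, at 5.54% of kept barcodes for all members.

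Marker-low C1q-positive cells were spread over class II counts as follows. Among the 523 marker-low C1q-positive cells of young tumour, 350 had 100 or more class II UMIs (66.9%), 75 had none and 41 had 5 to 49. The same cells of young sham numbered 173, of which 24 had 100 or more UMIs and 124 had none. In old sham 18 of 148 had 100 or more and 93 had none, and in old tumour 15 of 179 and 105. The marker-low cells with 0 to 4 class II UMIs held the 7 choroid plexus genes at 91002 CPM in young sham and 91033 CPM in young tumour, against 1365 and 5439 CPM in the marker-low members, so the 2 ends need not be cells of 1 kind. Marker-high cells formed a tail instead: in young tumour 1743 of 3136 had none, 993 had 1 to 4, 151 had 5 to 19, 63 had 20 to 49 and 186 had 50 or more. In old tumour the marker-high counts were 1939, 564, 63, 21 and 27. Just inside and outside the threshold, 26 cells of young tumour had 20 to 24 class II UMIs and 17 had 15 to 19, and the counts in old tumour were 11 and 8.

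Class II RNA outside cells was not the same in all libraries. Oligodendrocytes, which should lack class II, had at least 1 class II UMI in 29.4% of cells in young tumour (median depth 5756.5 UMIs) but in 3.06%, 4.16% and 5.16% in young sham, old sham and old tumour (median depths 6692, 5322.5 and 5994). Marker-high C1q-positive cells had at least 1 in 44.4%, 12%, 21.7% and 25.8% in the same order, at median depths of 3344, 3825, 5181 and 4925.5. At the member threshold of 20 UMIs the share of oligodendrocytes was 0 to 0.444%, and that of astrocytes 0.396% to 0.995%. Marker-high C1q-positive cells reached 20 UMIs in 0.243% in young sham and 0.492% in old sham, below the astrocytes of the same libraries (0.396% and 0.968%), and in 7.94% in young tumour and 1.84% in old tumour. These sham shares lay above those of oligodendrocytes of the same libraries (0% and 0.226%). They thus fell between the values of the cells that should lack class II, and ratios over them have a base close to background values. How much of that base is free RNA was not tested. Counts of a few class II UMIs can thus be free RNA, and the class II-low cells used for comparison have 0 to 4 UMIs. Levels at 5 to 19 class II UMIs are given as a description only.

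**Figure D2:**
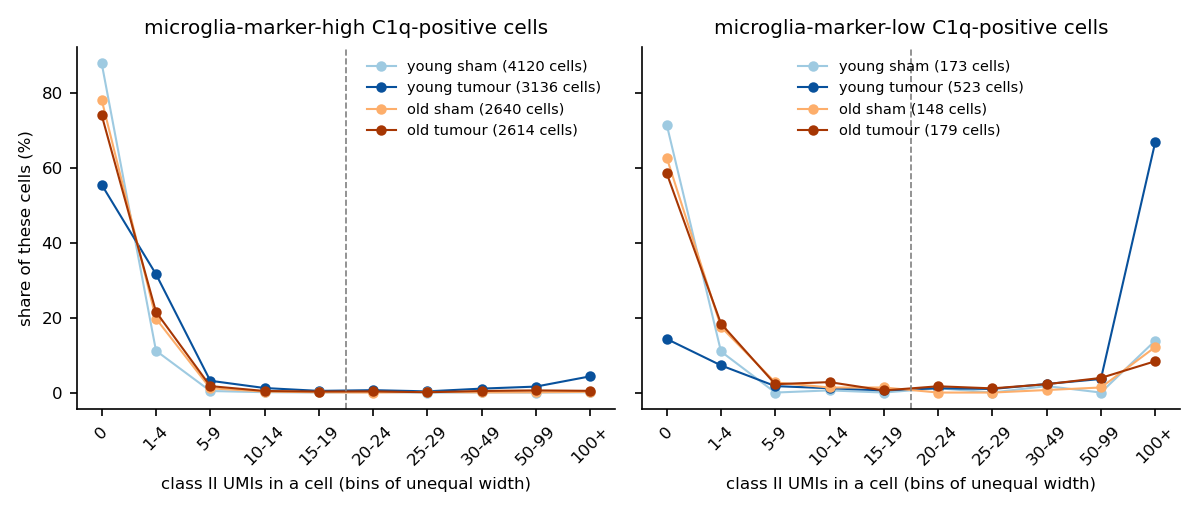
Share of C1q-positive cells by class II UMIs in a cell, marker-high on the left and marker-low on the right, with 1 line per library and a dashed line at the member threshold of 20. In the young tumour library 66.9% of marker-low cells lie at 100 or more, against 4.34% of marker-high cells.

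Members were well covered, and the libraries' depths differed less than their member counts. The 4 libraries held 62726818 to 76652484 UMIs, and kept cells had medians of 3954 to 5008 UMIs. Members had medians of 4783, 8337, 5035.5 and 6693 UMIs in the 4 libraries. Between 27 and 53 barcodes were shared by any pair of libraries, and no member's barcode was a member in 2 libraries. A doublet score marked 5, 69, 7 and 7 of the members (12.8%, 10.8%, 20.6% and 8.86%). The number marked in a library was set by its size: 1095 of 11701, 1072 of 11575, 868 of 10418 and 935 of 10809 kept cells. Among marker-low members of old sham 5 of 21 were marked (23.8%), and among marker-high members of young sham 3 of 10 (30%).

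The labelled cell type was checked against genes that the rule did not use. On the marker-high side, the homeostatic genes Sall1, a microglial transcription factor, and Gpr34, a lysophospholipid receptor, were present in all 4 libraries: Sall1 stood at 252, 79.2, 87.2 and 94.2 CPM (UMIs per 1000000 UMIs of the pooled cells) in the 4 libraries. In marker-low members Sall1 stood at 6.69, 5.29, 0 and 14.7 CPM. The 18 homeostatic genes summed to 43909, 28431, 51604 and 33792 CPM in marker-high members. In marker-low members they summed to 15835, 6949.6, 17852 and 15196 CPM, lowest in young tumour. The part of this in the differences between libraries below was not tested. Blood macrophage genes ran the other way, with Lyz2 (lysozyme) at 1181, 4249.6, 2877 and 3271 CPM in marker-high and 8302, 8719, 14278 and 9972 CPM in marker-low members. Of 12 T cell genes outside the rule, 0 to 10 were seen in a pool, and their summed level was 0 to 23.4 CPM. Dendritic cell genes were low in the tumour libraries and higher in marker-low sham members, where Mgl2 stood at 274 CPM in young and 229 CPM in old sham against 25.9 and 29.4 CPM in the tumour libraries. In marker-low sham members, Tnip3 likewise stood at 308 and 305 CPM. The summed level of the 19 dendritic genes was 1037, 354, 944 and 426 CPM in marker-low members, with 14, 19, 8 and 6 of the genes detected. Xcr1 and Clec9a, which define one dendritic lineage, were at 0 in both old libraries. The part of dendritic cells in the tumour to sham differences below was not tested.

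Across members of the young tumour library, microglial and blood-derived genes traded places along the marker count that made the split. In cells with 0, 1 to 2, 3 to 4, 5 to 9, 10 to 19 and 20 or more UMIs of P2ry12, Tmem119 and Siglech (214, 178, 65, 43, 96 and 45 cells), the summed level of 18 other homeostatic genes was 6686, 7212, 9564, 24677, 34269 and 51065 CPM. Over the same steps the 25 blood macrophage genes summed to 17579, 15090.0, 13752, 6462, 4984 and 3243 CPM. Ms4a7, a membrane protein of monocyte-derived and border macrophages, stood at 1206, 1498, 1697, 405, 355 and 160.3 CPM. For reference, Ms4a7 lies at chr19:11321039-11336146 (minus strand) in GRCm38. The break in Ms4a7 lay between 3 to 4 and 5 to 9 UMIs, inside the marker-high side, so that the 65 cells at 3 to 4 had the Ms4a7 level of marker-low members. The genes of class I presentation did not follow these steps and summed to 16228, 16058, 17274, 17621, 17390.0 and 17171 CPM. The interferon-gamma genes summed to 6696, 5365, 4970.0, 3343, 3375 and 3277 CPM.

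**Figure D3:**
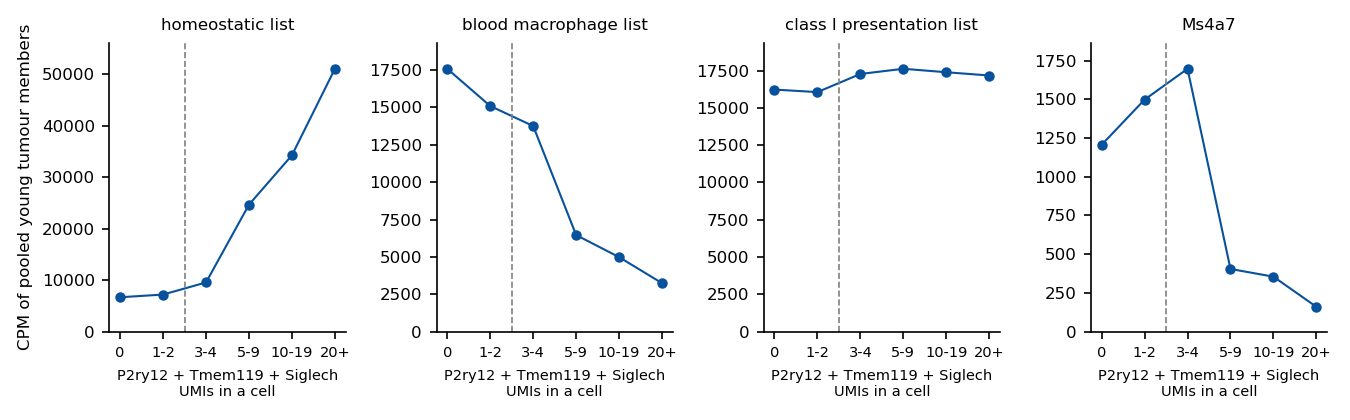
Pooled levels (CPM) in members of the young tumour library by their UMIs of P2ry12, Tmem119 and Siglech, with a dashed line at the split of 3. Homeostatic genes rise along the axis, blood macrophage genes and Ms4a7 drop after 3 to 4 UMIs, and class I genes stay between 16058 and 17621 CPM.

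The first comparison asked how marker-high cells with much class II differed from marker-high cells of the same library with little. Genes with at least 50 UMIs over both pools and 50 CPM in one of them were tested, so that a gene seen in 1 pool alone entered because it differed, and the list counts below describe the tested genes only. Fold values are CPM ratios with their counting interval, so that a fold below 1 is a lower level. A gene was called when its ratio was at least 1.5 in either direction and its interval did not hold 1. In young tumour (249 members against 2736 cells), 426 of 3474 genes were called higher (12.3%) and 1395 lower (40.2%), with a median log2 ratio of -0.41 over all genes. After centring on that median the calls were 832 higher and 636 lower, and with mitochondrial, ribosomal and rule genes left out of the totals 654 and 1212. The lists held 12 class II loading, 20 class I, 30 interferon-gamma, 26 type I interferon, 18 homeostatic, 25 disease-associated and 25 blood macrophage genes, of which 5, 18, 16, 17, 18, 17 and 14 were tested here. The 2 pools were set apart by the rule, so these are descriptions of what came with class II.

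Class I presentation rose with class II. Of 18 class I genes tested in young tumour, 16 were called higher and none lower, with a median log2 ratio of 1.71. The class I heavy chain H2-K1 stood at 619.8 CPM in class II-low and 2959.9 CPM in class II-high cells, a ratio of 4.78-fold (4.61 to 4.95). B2m, the light chain of class I, differed 2.73-fold (2.66 to 2.79), the immunoproteasome subunit Psmb8 3.42-fold (3.24 to 3.62) and the peptide transporter Tap1 3.57-fold (3.07 to 4.15). By class II count, at 0, 1 to 4, 5 to 19, 20 to 49 and 50 or more class II UMIs, H2-K1 stood at 547, 723, 1609.7, 2563 and 3053 CPM. All 5 tested genes of class II loading were called higher: H2-DMb1 3.83-fold (3.51 to 4.18), Ifi30, a thiol reductase that unfolds antigen, 3.57-fold (3.35 to 3.81), H2-DMa 2.36-fold (2.21 to 2.51), H2-Oa, a brake on H2-DM, 1.66-fold (1.36 to 2.01) and the protease Ctss 1.56-fold (1.53 to 1.58). Close relatives such as the class I, Gbp and Ifi2 genes can share reads, so single members of these families are less certain than their lists. Ciita reached 36.9 CPM in these members, and 53 of the 249 cells had at least 1 UMI of it (21.3%).

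Interferon genes were higher as well. Of 16 tested interferon-gamma genes, 13 were called higher and 1 lower, with a median log2 ratio of 2.33. The lower one was the receptor chain Ifngr1 (0.389-fold, 0.357 to 0.423). The guanylate-binding protein Gbp2 differed 10.7-fold (8.86 to 12.9) and Cxcl9, a chemokine for activated T cells, 154-fold (113 to 213). All 17 tested type I interferon genes were called higher, among them Isg15 (11.1-fold, 9.86 to 12.5), Irf7 (25.9-fold, 20.5 to 32.9) and Ifit3 (10.2-fold, 8.18 to 12.7). Over the 5 class II classes the type I interferon genes climbed by steps, with sums of 667, 918, 2450.4, 4126 and 6089 CPM, whereas Cxcl9 stood at 3.05, 5.97, 54.4, 4.74 and 808 CPM and was high only in the last. Oligodendrocytes of this library had Cxcl9 at 1.73 CPM.

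Homeostatic genes were lower. Of 18 tested, 17 were called lower and none higher, with a median log2 ratio of -1.60, below the median of all genes, though Olfml3 and Crybb1 lay within 1.5-fold of that median. The fractalkine receptor Cx3cr1 stood at 2842 CPM in class II-low and 1061 CPM in class II-high cells (0.373-fold, 0.358 to 0.389). Gpr34 was at 0.214-fold (0.20 to 0.23) of the class II-low level, the nucleotide receptor P2ry13 at 0.203-fold (0.176 to 0.232) and Sall1 at 0.263-fold (0.224 to 0.306). Rgs10, a regulator of G protein signalling, was the one not called (0.68-fold, 0.652 to 0.709). Other genes with the lowest ratios, called and lower in old tumour as well, were Lrba (0.167-fold, 0.127 to 0.215), Hpgd, which degrades prostaglandins (0.207-fold, 0.182 to 0.235), the endothelial gene Itm2a (0.187-fold, 0.145 to 0.238), Sox4, Csmd3, Apod, Fabp7 and S100a9. S100a9 rests on 4 UMIs in members. All 9 tested oligodendrocyte genes and all 7 endothelial genes were lower too, with the oligodendrocyte list at 2120 CPM in class II-low and 862 CPM in class II-high cells and the 9 endothelial genes at 2183 and 826 CPM. The part of this RNA in the other differences was not tested.

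Genes of phagocytic and damage-responding microglia were mostly higher. Of 17 disease-associated genes tested, 11 were called higher and 2 lower (Trem2 at 0.63-fold and Cd9 at 0.605-fold), though relative to the median of all genes both lay within 1.5-fold. Apoe, the lipid carrier, stood at 2791 CPM in class II-low and 35713 CPM in class II-high cells (12.8-fold, 12.6 to 13). Cst7, a cathepsin inhibitor, differed 19.8-fold (17 to 23.2) and the galectin Lgals3 33.1-fold (27.7 to 39.8). Spp1 (osteopontin) differed 28.6-fold (23.3 to 35.4), but 5 of the 249 cells held 73.4% of its UMIs. The ranking of this comparison holds only genes with a ratio of the same sign in old tumour, which leaves out Ccl8, Cxcl9, Slamf7 and Cfb. The gene that topped the ranking, the B cell chemokine Cxcl13 (342-fold, 172 to 795), was seen in 8.03% of the 249 cells, and 5 of them held 80.1% of its UMIs.

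Blood macrophage genes were higher in the same cells, 12 of 14 tested and none lower. Ms4a7 stood at 2.58 CPM in class II-low and 715 CPM in class II-high cells (277-fold, 189 to 426) and was second in the ranking. Over the 5 class II classes Ms4a7 was at 2.71, 2.39, 5.78, 18.9 and 879 CPM, and the summed list at 737, 925, 1364, 1634 and 8823 CPM. Both values for class II-high cells rest largely on cells next to the split: the 65 of 249 cells with 3 to 4 UMIs of the split genes held 1083 of the 1589 Ms4a7 UMIs (68.2%) and 8777 of the 16564 UMIs of the list (53%). Their median was 490 class II UMIs, against 93, 79 and 64 in cells with 5 to 9, 10 to 19 and 20 or more UMIs of the split genes. With the split at 10, chosen after seeing the data, the Ms4a7 ratio was 154-fold, and 12 of the 23 genes named for this comparison that had a value there moved by over 1.5 times. Cells with 50 or more UMIs were also deeper, with a median of 9626.5 UMIs against 4922 in those with 20 to 49. In bins of class II UMIs per 10000, Ms4a7 stood at 2.71, 1.69, 6.61, 18.5 and 818 CPM and H2-K1 at 547, 695, 1261, 2236 and 3022 CPM. The other genes that led this ranking of genes with the same sign in old tumour were Wfdc17 (70.4-fold, 51.7 to 98.2), the inhibitory receptor Cd72 (49.8-fold, 41.5 to 60.1), Cybb, the core of the phagocyte NADPH oxidase (35.4-fold, 28.3 to 44.7), the inhibitory receptor Lilrb4a (28.5-fold, 18.7 to 44.9), the interferon genes Ifi207 (27.1-fold, 19.3 to 38.9) and Ifi204 (15.3-fold, 12.6 to 18.6), Fgl2 (18.5-fold, 15.3 to 22.4), AW112010 (16.6-fold, 15.2 to 18.1), the cytokine Il1b (16.1-fold, 13.1 to 19.9) and Tgfbi (15.7-fold, 13.3 to 18.5). AW112010 stood at 60.4, 75.2, 128, 159 and 1323 CPM over the 5 classes.

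Cytokine and complement genes were higher in the same cells. Of 15 cytokine genes tested in young tumour, 10 were called higher and none lower, led by Ccl8 (241-fold, 139.8 to 454), Ccl5 (43.1-fold, 38.8 to 48), Ccl7 (29.6-fold, 20.4 to 44.1) and Cxcl16 (7.82-fold, 7.06 to 8.67), all of them chemokines. Complement and Fc genes were higher in 7 of 13, with Cfb (86-fold, 52.9 to 149), C3 (34.4-fold, 24.3 to 50.2) and the Fc receptor Fcgr4 (20.8-fold, 17.7 to 24.5), and 1 was lower. Among 10 costimulation and checkpoint genes, Slamf7 (86.8-fold, 43 to 205) and Cd48 (1.63-fold, 1.46 to 1.81) were higher. Vsir, Sirpa, Havcr2 and Cd84 were lower, Vsir by the most (0.36-fold, 0.332 to 0.39), and Havcr2 and Cd84 lay within 1.5-fold of the median of all genes. These 4 of 10 are close to the 40.2% of all tested genes called lower, so nothing is read from them about the list. Immediate early genes were lower in 13 of 22, with Jun at 0.31-fold (0.296 to 0.326), and 6 of them lay within 1.5-fold of that median. Lysosome genes were higher in 6 of 16, Npc2, a cholesterol carrier, by 2.52-fold (2.43 to 2.62).

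Genes of border macrophages and of the cell cycle were counted beside these. The 16 border macrophage genes outside the rule summed to 309 CPM in class II-low (13 detected) and 1468 CPM in class II-high marker-high cells (14 detected) of young tumour, where Ms4a7 and Wfdc17 belong to the list, and to 2692 CPM in marker-low members (14 detected). In old tumour the sums were 230 CPM (14 detected), 471 CPM (9 detected) and 1073 CPM (10 detected), and their part in the other differences was not tested. Mki67, a gene of dividing cells, had at least 1 UMI in 15 of 249 marker-high members (6.02%, 3.41 to 9.74) and 44 of 392 marker-low members (11.2%, 8.28 to 14.8) of young tumour. No Mki67 UMI was seen in the 79 members of old tumour, too few cells for a comparison with young tumour.

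**Figure D4:**
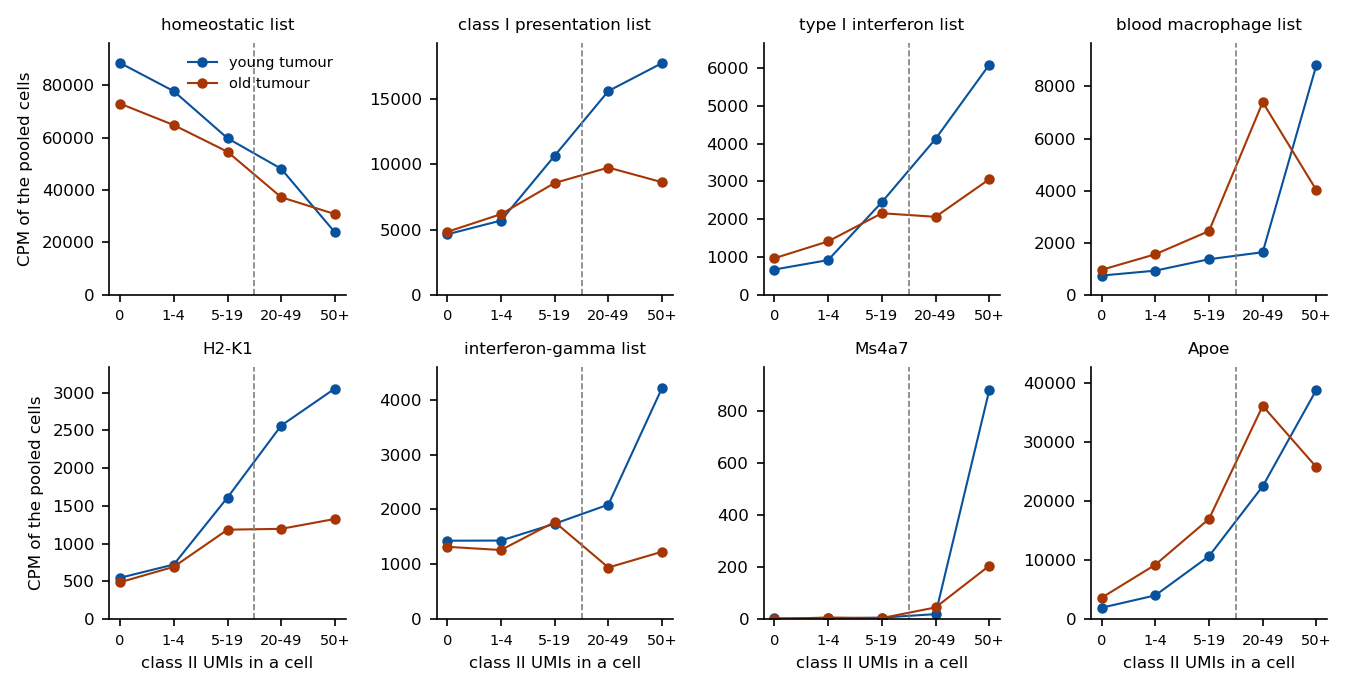
Pooled levels (CPM) of marker-high C1q-positive cells by class II UMIs in a cell, for the young and old tumour libraries, with a dashed line at the member threshold of 20. In young tumour H2-K1 climbs over the last 3 classes and Ms4a7 steps from 18.9 to 879 CPM at 50 or more, whereas in old tumour H2-K1 ends at 1326 CPM.

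In old tumour the same comparison (48 members against 2503 cells) called 370 of 3473 genes higher (10.7%) and 872 lower (25.1%), with a median log2 ratio of -0.22, or 614 and 487 after centring and 572 and 788 with the reduced totals. The homeostatic loss was there: all 18 genes were called lower, with Gpr34 at 0.335-fold (0.292 to 0.382) and Cx3cr1 at 0.437-fold (0.40 to 0.476) of the class II-low level. Disease-associated genes were higher in 16 of 22, with Apoe at 5116 and 30565 CPM (5.97-fold, 5.87 to 6.08), Cst7 at 12.7-fold (10.9 to 14.7), Gpnmb, a lysosomal glycoprotein, at 88.6-fold (51.2 to 161) and Lpl, lipoprotein lipase, at 8.65-fold (7.36 to 10.1). Spp1 differed 44.6-fold (39.6 to 50.2), with 92.6% of its UMIs in 5 cells. Blood macrophage genes were called higher in 13 of 14, Ms4a7 by 76.3-fold (46.9 to 128). That ratio rests on few UMIs: 27 in the 11 members with 3 to 4 UMIs of the split genes and 24 in the 13 with 5 to 9. The 9 members with 10 to 19 held 11, and the 15 with 20 or more held 0.

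Of 7 interferon-gamma genes tested in these old members, 0 were called higher and 2 lower, close to the 10.7% and 25.1% of all tested genes (Ifngr1 at 0.503-fold and Gbp7 at 0.526-fold). Class I genes were called higher in 7 of 15, with H2-K1 at 543 and 1265 CPM (2.33-fold, 2.14 to 2.53), and type I interferon genes in 5 of 8, led by Ifi27l2a and Ifitm3 at 4.41-fold (3.84 to 5.06) and 4.41-fold (3.95 to 4.91). Of the class II loading genes only H2-DMb1 was called (1.68-fold, 1.37 to 2.04). The fewer cells leave fewer genes with enough UMIs, and the difference between the ages was not tested. All 4 tested choroid plexus genes were called higher in the old members, where the 7 genes of that list summed to 23602 CPM against 575 CPM in young tumour, and 98.1% of the Ttr UMIs lay in 5 cells. Their part in the other differences was not tested.

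The second comparison set marker-low against marker-high members of 1 library. In young tumour (392 against 249 cells), 262 of 2719 genes were called higher in marker-low members (9.64%) and 307 lower (11.3%). All 18 homeostatic genes were lower, with a median log2 ratio of -2.95. Fcrls, a microglial Fc receptor-like gene, stood at 361 CPM in marker-high and 30.3 CPM in marker-low members (0.084-fold, 0.0677 to 0.103), and Sparc, a matrix protein, at 1079 and 112 CPM (0.104-fold, 0.0932 to 0.116). Gpr34 was at 0.0445-fold (0.0334 to 0.0583). Klk8 (0.036-fold, 0.0142 to 0.0764), Slco2b1 (0.0575-fold, 0.0354 to 0.089), Ltc4s, which makes leukotriene C4 (0.0698-fold, 0.0518 to 0.0922), Plxdc2 (0.0753-fold, 0.0542 to 0.102), Lag3 (0.118-fold, 0.0822 to 0.166) and P2ry13 (0.129-fold, 0.0907 to 0.179) completed, with Cst7 (0.116-fold, 0.0979 to 0.138), the lowest of the genes with the same sign in old tumour. Cst7 was thus a gene of the marker-high side, at 409 against 47.6 CPM.

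Blood macrophage genes were called higher in 20 of 21 and lower in none. Ccr2, the monocyte chemokine receptor, stood at 44.6 and 171 CPM (3.83-fold, 3.09 to 4.79), and 41.8% of marker-low members had at least 1 UMI of it against 9.64% of marker-high members. The other leading genes among those with the same sign in old tumour were Crip1 (4.19-fold, 3.34 to 5.31), Igfbp7 (3.19-fold, 2.37 to 4.38), Il1b (2.66-fold, 2.39 to 2.97), Ifitm2 (2.56-fold, 2.37 to 2.77), Tgfbi (2.38-fold, 2.18 to 2.6), Gadd45g (2.29-fold, 1.72 to 3.08), Clec12a (2.29-fold, 2.02 to 2.59), Msrb1 (2.24-fold, 1.92 to 2.63) and Ms4a6c (2.19-fold, 2.05 to 2.35). Ttr, Ecrg4 and Enpp2 had higher ratios in young tumour but were called lower in old tumour. Interferon-gamma genes were higher in 14 of 21, Cxcl9 by 2.15-fold (2.03 to 2.28). No class I gene of 18 was called in either direction, with H2-K1 at 2959.9 and 2853 CPM (0.964-fold, 0.934 to 0.995). Ciita was 2.28-fold (1.78 to 2.95) as high and H2-DMb1 1.62-fold (1.5 to 1.74), and H2-Oa lower (0.344-fold, 0.258 to 0.456). The 7 choroid plexus genes summed to 5439 CPM in marker-low and 575 CPM in marker-high members, all 7 detected in both, with 3 of 3 tested higher, and their part in the other differences was not tested.

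In old tumour (31 against 48 cells), 131 of 1819 genes were called higher in marker-low members (7.2%) and 270 lower (14.8%), or 176 and 211 after centring. Homeostatic genes were lower in 13 of 14 and class I genes were called in neither direction. Lyz2 was 3.05-fold (2.85 to 3.26) as high, Ms4a7 3.21-fold (2.29 to 4.53) and Lgals3 5.6-fold (4.62 to 6.82). The 25 blood macrophage genes summed to 12716 CPM in marker-low and 5597.5 CPM in marker-high members. Unlike in young tumour, some genes of that list were called lower, among them Emb (0.439-fold) and S100a11 (0.351-fold). All 5 tested oligodendrocyte genes were called higher and all 4 choroid plexus genes lower. The 9 oligodendrocyte genes summed to 4288 CPM in marker-low and 348 CPM in marker-high members.

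The third comparison asked how marker-low members differed between tumour and sham. The sham marker-high pools had 10 and 13 cells, under the 20 set as a minimum, and their levels are given as values only. In young mice (392 tumour against 29 sham cells), 391 of 2936 genes were called higher in tumour (13.3%) and 382 lower (13%). The tumour pool held 3400651 UMIs and the sham pool 149478, so that the filter on UMIs leans to genes high in tumour. Interferon-gamma genes were higher in 18 of 21, with a median log2 ratio of 3.17 that counts genes unseen in sham at their bound. Cxcl9 stood at 0, 1409, 0 and 9.8 CPM in the marker-low members of the 4 libraries. Young tumour was the one library high in Cxcl9, at least 70.2-fold above young sham, where no UMI was seen, and 250 of its 392 marker-low members had at least 1 UMI (63.8%). Gbp2 stood at 6.69, 266, 0 and 19.6 CPM (39.7-fold, 7.11 to 1569.5, on 1 UMI in sham).

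Class I genes were higher in 15 of 17 and complement and Fc genes in 11 of 14. H2-K1 stood at 1004, 2853, 1106 and 1019 CPM (2.84-fold, 2.42 to 3.36), the Fc receptor Fcgr4 at 20.1, 626, 28.6 and 53.9 CPM (31.2-fold, 10.7 to 151) and complement C3 at 6.69, 284, 66.7 and 0 CPM (42.4-fold, 7.59 to 1677). Complement factor B, Cfb, was at 0, 314, 0 and 0 CPM, at least 15.6-fold higher in young tumour. Apoc2, a cofactor of lipoprotein lipase, was the remaining gene among the 5 highest (49.8-fold, 8.91 to 1967, on 1 UMI in sham).

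Chemokines divided in young mice. Ccl5, which draws T cells and monocytes, stood at 120.4, 3472, 66.7 and 24.5 CPM in marker-low members (28.8-fold, 18.2 to 48.7), and 80.6% of the cells of young tumour had at least 1 UMI against 3.45% in young sham. Ccl5 is also an NK and T cell gene. The list of 10 NK genes summed to 3482 CPM in these members, nearly all of it Ccl5, with 5 genes detected and Ncr1, Klrb1c and Prf1 at 0, and to 24.5 to 120.4 CPM in the marker-low members of the other libraries, where Ccl5 was the one gene seen. Oligodendrocytes of young tumour had Ccl5 at 50.2 CPM. Ccl12 (29.4-fold, 8.14 to 243), Ccl7 (23.3-fold, 4.16 to 922) and Ccl2 (6.66-fold, 2.84 to 20.6) were higher too. Il1b (0.23-fold, 0.205 to 0.26), Cxcl2 (0.0135-fold, 0.00918 to 0.0195), Ccl3 (0.125-fold, 0.109 to 0.145) and Ccl4 (0.302-fold, 0.27 to 0.34) were lower, with Il1b at 2234, 514, 2840.4 and 1485 CPM in the 4 libraries.

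Immediate early genes were lower in 18 of 24 and higher in none. Egr1 stood at 749, 46.8, 1144 and 711 CPM (0.0624-fold, 0.0487 to 0.0802) and Jun at 2355, 367, 3288 and 1700.4 CPM (0.156-fold, 0.138 to 0.176). These genes can be induced while tissue is dissociated, and they were lower in class II-low marker-high cells of young tumour as well, where Jun stood at 2552 CPM against 4273, 6147 and 2739 CPM in young sham, old sham and old tumour. Their part in the other differences was not tested. The other lowest genes, Penk, Ccn3, Mgp and Lpl, rest on few sham cells: 5 of the 29 held all UMIs of Penk, Mgp and Lpl. Hemoglobin and Alas2 summed to 1003 CPM in marker-low members of young tumour against 87 CPM in young sham, 57.2 in old sham and 4.9 in old tumour, with 5, 3, 3 and 1 of the 5 genes detected, and its part in the other differences was not tested.

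In old mice (31 tumour against 21 sham cells), 71 of 677 genes were called higher in tumour (10.5%) and 53 lower (7.83%). Of 2 interferon-gamma genes and 6 class I genes tested, 0 were called, and H2-K1 was 0.922-fold (0.731 to 1.17). Among the 5 highest genes were Mal (51.4-fold, 9.02 to 2051), Apod (20.4-fold, 7.83 to 75.9, but reversed, at a log2 ratio of -4.04, when each cell was thinned to 2000 UMIs), Mbp (15.8-fold, 5.23 to 77.9) and Aplp1 (14.4-fold, 3.8 to 122), and the 9 oligodendrocyte genes summed to 4288 CPM in old tumour (9 detected) and 229 CPM in old sham (6 detected). Their part in the other differences was not tested. The antiviral membrane protein Ifitm3 (2.45-fold, 1.77 to 3.48) and Fabp5, a fatty acid carrier (1.57-fold, 1.17 to 2.12), were also higher. The lowest were Hspa1a (0.237-fold, 0.128 to 0.425), Pim1 (0.276-fold, 0.157 to 0.474), Sparcl1 (0.294-fold, 0.178 to 0.477), Gadd45b (0.304-fold, 0.185 to 0.491) and Cdkn1a (0.319-fold, 0.211 to 0.479). H2-DMb1 (0.626-fold, 0.45 to 0.873) and H2-DMa (0.574-fold, 0.425 to 0.777) were lower in tumour. Only 677 genes were deep enough here against 2936 in young mice, so a change in most interferon genes was not detectable at this depth, and the difference between the ages was not tested.

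The last comparisons set old against young members within 1 treatment, and they use the same pools as the comparisons above. In sham, marker-low members (21 old against 29 young cells) had 67 of 575 genes called higher (11.7%) and 68 lower (11.8%). Lysosome genes were higher in 10 of 16 and disease-associated genes in 11 of 16, and none of either was lower. The cathepsin Ctsd stood at 849.6, 1108, 3927 and 4386 CPM in the 4 libraries (4.62-fold, 3.78 to 5.68), Ctsl at 221, 364, 1001 and 1279 CPM (4.53-fold, 3.04 to 6.92) and Lgals3 at 408, 771, 1839.6 and 1759 CPM (4.51-fold, 3.36 to 6.12). All 3 were high in both old libraries, but 95.9% of the Ctsd and 94.3% of the Lgals3 UMIs of old sham came from 5 of 21 cells. Timp2 (4.82-fold, 3.26 to 7.29) and Spp1 (8.41-fold, 6.56 to 10.9, 99.3% in 5 cells) completed the 5 highest. Among the lowest were Mgp, Penk, Ecrg4 and Ptgds, with all of the Mgp UMIs of young sham in 5 of 29 cells.

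Between the tumour libraries, marker-low members (31 old against 392 young cells) had 510 of 2965 genes called higher in old (17.2%) and 469 lower (15.8%). The old pool held 204066 UMIs and the young pool 3400651, so that the filter on UMIs leans to genes high in young. List counts here describe the tested genes only. Interferon-gamma genes were lower in 19 of 21, class I genes in 14 of 17 and type I interferon genes in 15 of 20, and none of the 3 lists had a member called higher. Cxcl9 was at 0.00696-fold (0.000842 to 0.0251), Ccl5 at 0.00706-fold (0.00229 to 0.0165) and H2-K1 at 0.357-fold (0.31 to 0.41) of the young level. Ccl8 (0.0145-fold, 0.000368 to 0.0812), Acp5 (0.0221-fold, 0.00267 to 0.0799) and Il18bp, which neutralises interleukin-18 (0.0286-fold, 0.000724 to 0.16), were the other lowest. Ciita (0.35-fold, 0.127 to 0.77), H2-DMa (0.576-fold, 0.465 to 0.706) and H2-DMb1 (0.595-fold, 0.473 to 0.74) were lower in old members too.

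Disease-associated genes were higher in 16 of 22 genes in old marker-low tumour members, with Ctsd at 3.96-fold (3.68 to 4.26), Trem2, a lipid receptor, at 2.47-fold (2.18 to 2.79) and Gpnmb at 4.01-fold (2.64 to 5.93). Lpl (57.1-fold, 41.3 to 80.2) and the elastase Mmp12 (at least 406-fold) were among the 5 highest, with 96.4% and all of their old UMIs in 5 cells. The others were Cxcl2 (48.7-fold, 33.6 to 72), Egr1 (15.2-fold, 12.1 to 19.2) and Pmp22 (13.9-fold, 9.21 to 21). Cd52 was the one disease-associated gene lower (0.477-fold, 0.42 to 0.539). Immediate early genes were higher in 19 of 24. All 9 oligodendrocyte genes were higher, and their part in the other differences was not tested.

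Marker-high members of the tumour libraries (48 old against 249 young cells) had 531 of 3035 genes called higher in old (17.5%) and 375 lower (12.4%). The old pool held 477535 UMIs and the young pool 2221380, so that the filter on UMIs again leans to genes high in young. Interferon-gamma genes were lower in 14 of 16, type I interferon genes in 17 of 17 and class I genes in 15 of 18. Gbp2 stood at 29, 171, 77.5 and 29.3 CPM in the marker-high members of the 4 libraries, so that young tumour was the highest. Ccl8 (0.00675-fold, 0.000171 to 0.0377), Cfb (0.0144-fold, 0.000365 to 0.0811), Ccl7 (0.0216-fold, 0.000545 to 0.122), Ccl5 (0.028-fold, 0.0175 to 0.0425) and Clec4a1 (0.0305-fold, 0.00368 to 0.111) were the lowest. Homeostatic genes were called in 3 of 18, all lower (Olfml3 at 0.64-fold, Crybb1 at 0.276-fold and Ecscr at 0.485-fold), with Cx3cr1 at 1.03-fold (0.932 to 1.13). Disease-associated genes were higher in 11 of 22, Lpl by 13.4-fold (10.2 to 17.9) and Cd9 by 2.32-fold (2.14 to 2.52). The 5 highest, Ogn, Slc4a10, Foxd1, Prg4 and Col1a2, had at least 94.9% of their UMIs in 5 of the 48 old cells, and all 7 endothelial and all 4 choroid plexus genes tested were higher in old members.

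**Figure D5:**
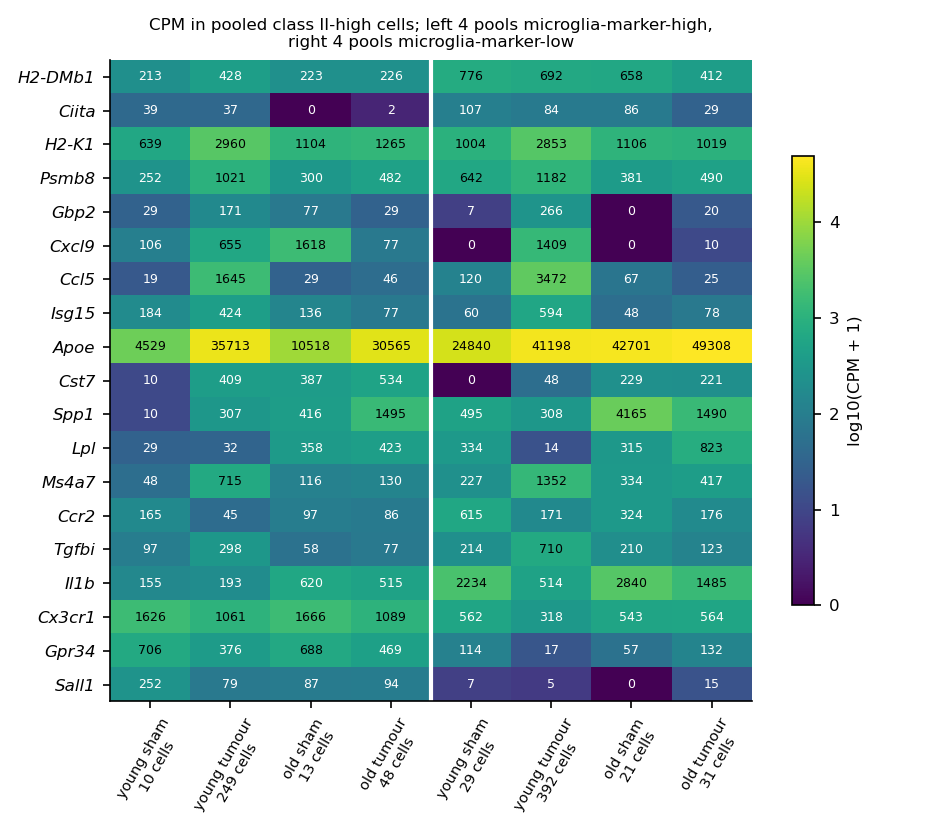
CPM of 19 genes in the 8 pools of class II-high cells, coloured on a log10 scale and printed in each tile, with the number of cells under each pool. The young tumour pools stand out in H2-K1, Psmb8, Gbp2, Ccl5 and Ms4a7, and the Cxcl9 tile of old sham marker-high members comes from 1 cell.

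Marker-low members, whose class II was high by the rule, differed between libraries in the interferon-gamma genes. Marker-low members of the sham libraries had medians of 249 class II UMIs in young and 238 in old. They held Ciita at 107 and 85.8 CPM, seen in 7 of 29 and 6 of 21 cells, while the 30 interferon-gamma genes summed to 970.0 and 1125 CPM. The dendritic genes summed to 1037 and 944 CPM in these sham pools, against 354 and 426 CPM in young and old tumour, and their part was not tested. Marker-low members of young tumour had a median of 444.5 class II UMIs, Ciita at 84.1 CPM and an interferon-gamma sum of 6029 CPM. This holds for that list in marker-low members only. In marker-high members the sum was 3371 CPM in old sham, 13 cells of which 1 held all Cxcl9 UMIs, against 3811 CPM in young tumour. The type I interferon genes were at 3312 and 2316 CPM in the marker-low members of young and old sham. In the marker-low class II-low cells of these libraries they were at 688 and 2065 CPM. Those class II-low cells held the 7 choroid plexus genes at 91002 and 52938 CPM, against 1365 and 477 CPM in the members. The part of choroid plexus RNA in this difference was not tested. Per 10000 UMIs of the cell, the class II medians were 587, 570, 611 and 395 in the 4 libraries, so that 3 of the 4 libraries lay close together by rate. Cd86, a costimulatory ligand of CD28, stood at 140.5, 136, 152 and 152 CPM in marker-low members and at 96.8, 165, 232 and 161 CPM in marker-high members.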

How the data were processed

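Cells of the contralateral hemisphere were isolated with an adult brain dissociation kit and sequenced with 10x Genomics 3′ v3 chemistry, 1 library per group, per the labels' protocols. The deposited files hold the authors' filtered UMI counts per gene and barcode. Their headers name cellranger 6.1.0, while the submitters' processing notes name Cell Ranger 3.0.2, Seurat 2.3.4 and mm10. The annotation release is not given in the sources used here, and gene positions are from GENCODE vM21 (GRCm38).

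Barcodes with at least 500 UMIs, 200 genes and at most 20% mitochondrial UMIs were kept, and no doublets were removed. Counts were summed per pool of at least 20 cells, scaled to 1000000 per pool (CPM) and compared as ratios with exact conditional Poisson 95% intervals; shares have Clopper-Pearson intervals. Intervals cover counting error only. With a count of 0 the ratio was bounded with 3 counts. A gene was tested with at least 50 UMIs over both pools and 50 CPM in one. Named genes were the 15 highest and 10 lowest called genes between class II-high and class II-low cells, the 10 highest and lowest across the split (both with the same sign in old tumour) and the 5 highest and lowest elsewhere, and list members are given as examples; a few genes that this rule picks are not reported here. Oligodendrocytes and astrocytes for free RNA were gated on marker UMIs with at most 1 C1q UMI. The labels give strain names that differ in a digit between samples. The members and lists were chosen with earlier results of these data known. Scripts were tested on simulated data and ran in Python 3.11.15 with numpy 2.4.6, pandas 2.3.3, scipy 1.17.1, scanpy 1.11.5 (Scrublet at 0.8% per 1000 barcodes, an alternative) and matplotlib 3.10.9.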

Additional observations from a re-analysis of the deposited data

Results flagged for a closer look

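Some genes were called in opposite directions in the young and the old mice. Each fold is a ratio of pooled CPM, and in no case was the difference between the ages tested, since each group is 1 library.

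Between class II-high and class II-low marker-high cells, the monocyte chemokines Ccl2 and Ccl12 were higher in the class II-high cells of young tumour (9.3-fold and 5.87-fold) and lower in those of old tumour (0.466-fold and 0.565-fold). Socs3, an inhibitor of cytokine signalling, was 1.7-fold higher in young and 0.621-fold in old. Genes of other brain cells went the other way. Ttr was 0.124-fold in young and 2.08-fold in old tumour, Ecrg4 0.282-fold and 4.28-fold, and Enpp2 0.238-fold and 2.04-fold, all 3 from the choroid plexus list. Abcb1a, an endothelial transporter, was 0.273-fold in young and 1.94-fold in old, Gja1, an astrocyte gap junction gene, 0.529-fold and 2.65-fold, and Clu 0.512-fold and 1.55-fold.

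Between marker-low members of tumour and sham, oligodendrocyte genes were lower in young and higher in old tumour: Mbp was 0.453-fold and 15.8-fold, Mal 0.569-fold and 51.4-fold, and Cnp 0.488-fold and 4.24-fold. Klf2, a transcription factor, was 0.122-fold in young and 8.11-fold in old mice, and Rhob, an immediate early gene, 0.245-fold and 2.23-fold. The chemokines Ccl3 (0.125-fold and 2.15-fold) and Ccl6 (0.529-fold and 1.68-fold), Lpl (0.0431-fold and 2.62-fold) and Stmn1 (0.389-fold and 4.94-fold) had the same pattern. The protease Ctsa was 1.94-fold in young and 0.643-fold in old mice.

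Between marker-low and marker-high members, Ttr was 10.2-fold in young and 0.0289-fold in old tumour, Ecrg4 5.13-fold and 0.258-fold, Enpp2 4.7-fold and 0.152-fold, and Clu 2-fold and 0.228-fold. Emb, from the blood macrophage list, was 3.72-fold in young and 0.439-fold in old tumour, and S100a11, from the same list, 3.04-fold and 0.351-fold. Egr1 (0.243-fold and 2.31-fold) and Tnf (0.574-fold and 3.16-fold) were lower in young and higher in old marker-low members.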

How the results depend on the processing

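With 1 library per group no replicate could be left out, the sham marker-high pools gave no comparison, and precision is set by the number of cells. No paired analysis was possible because each group is 1 sample. Over all alternatives, 1028 of 1037 values of the 95 named-gene results kept their direction and their side of the threshold, 8 kept only the direction, and Apod reversed between old tumour and old sham (log2 -4.04) when each cell was thinned to 2000 UMIs. A gene no longer tested under an alternative gave no value and is not counted, and the named genes were picked for their extreme ratios. The share of members in young tumour, 5.54% as reported, was 6.27% with a stricter cell filter, 6.06% at a class II threshold of 10, 4.92% at 40, 6.22% at 20 per 10000 UMIs and 6.2% after thinning. In old tumour, 0.731% became 0.953% at 10, 0.564% at 40 and 0.517% after thinning. Thinning changed the number of genes called from 1821 to 806 between class II-high and class II-low cells of young tumour, from 773 to 380 between young tumour and sham, from 979 to 433 between the marker-low members of the tumour libraries, from 124 to 44 between old tumour and sham, and from 135 to 43 between the sham libraries. Asking for 200 UMIs per gene changed it from 401 to 87 across the split in old tumour, from 906 to 407 between the marker-high members of the tumour libraries, from 124 to 29 between old tumour and sham, and from 135 to 36 between the sham libraries; fewer genes are tested there. A split at 10 UMIs, chosen after seeing the data, gave 271 in place of 124 between old tumour and sham. Other causes were not tested. Pools under 20 cells left these not run: the old tumour to sham and the sham old to young comparisons without doublets and at a C1q threshold of 20, and, after thinning, the class II, split and marker-high age comparisons that use old tumour.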
